A study of Mus musculus with 12 samples.

Results

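The cytoplasmic ribosomal protein genes encode the proteins of the small and the large ribosomal subunit. They were taken as the symbols that start with Rpl or Rps and a digit, with Rpsa, Rplp0, Rplp1 and Rplp2, and without pseudogene symbols, the Rps6k kinases and Rps19bp1. The rule gave 85 of the 25897 symbols in the deposited table, 33 for the small and 52 for the large subunit, and the list holds 8 paralogs of other members, such as Rpl22l1 and Rps27l. RNA came from the mouse embryonic stem cell line E14tg2a (129SV background) carrying a cRAF-ERT2 construct, a kinase fused to a hormone-binding domain so that 4-hydroxytamoxifen (4OHT) activates it and, through it, ERK. The promoter that drives the construct is not given in the sources used here. The 4 groups were untreated cells and cells after 1, 2 and 4 h in 250 nM 4OHT, each with 1 library from every one of 3 clones (a, b and c), 12 in all. All groups shared growth in serum with LIF and 2 µM Chir99021 (a GSK3 inhibitor), then 24 h in serum with LIF and the FGF receptor inhibitor PD173074 at 250 nM before treatment. All also received ethynyl uridine at 5 mM for the final 15 min. A group with carrier alone was not analysed here, so the carrier's effect and that of 4OHT cannot be told apart. The total RNA was depleted of ribosomal RNA before sequencing.

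Each ribosome contains 1 copy of most of these proteins, and cells make the proteins in matched amounts. Their mRNAs are short and abundant and usually start with a run of pyrimidines, the 5′ terminal oligopyrimidine (TOP) motif, through which mTOR and LARP1 control translation. Growth signals, MYC and the ERK and mTOR kinases raise ribosome production in many cell types. In mammals the genes have given rise to many processed pseudogenes, copies of the spliced mRNA scattered over the genome, so a short read from such an mRNA can match several places.

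The extent of such copies was read from the GENCODE M21 annotation of GRCm38. Of the 50-base words in the principal transcript of a member, a median of 51.4% also occurred in another annotated gene, against 2.84% for the 78 mitochondrial ribosomal protein genes. In all, 1106 annotated pseudogenes shared at least 1 such word with a member, and 44 of the 85 members shared at least 50% of their words. Rps27, a zinc-binding protein of the small subunit, lies at chr3:90212522-90213651 on the minus strand and shared 98.6%. Its retrocopy Rps27rt at chr9:114982366-114982739, also on the minus strand, has the same 255 coding bases, while the paralog Rps27l at chr9:66946086-66949516 on the plus strand differs at 61 of them. The first 60 coding bases (GENCODE M21, 5′ to 3′) show the case, with capitals for bases that differ from Rps27:
Rps27: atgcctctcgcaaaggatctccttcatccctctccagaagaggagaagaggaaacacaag
Rps27rt: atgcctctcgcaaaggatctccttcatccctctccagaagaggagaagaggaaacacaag
Rps27l: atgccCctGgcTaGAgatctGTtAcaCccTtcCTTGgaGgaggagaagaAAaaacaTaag
In the stretch shown Rps27l differs at 18 of 60 bases. Rps27rt had 0 counts in all 12 libraries, against a limit of 3 counts per library, which is 0.0954 to 0.124 CPM (counts scaled to a common library size). Rps27 had 4.2 to 6.5 CPM, and Rps27l, with 22.4% of its words shared, had 125 to 166 CPM.

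Measured levels followed this sharing. Over the 85 genes, the level per kilobase of exon in untreated cells and the percent of shared words had a Spearman rho of −0.53, a description across genes of the same libraries. The median level was 156 CPM per kilobase for the 14 members with under 25% shared, 82.3 for the 27 with 25 to 50%, 34.8 for the 22 with 50 to 75% and 13.2 for the 22 with more. How reads matching several places were counted is not given in the sources used here, and its part in these levels was not tested. Rpl13 and Rpl35, proteins of the large subunit, had 0 counts in all 12 libraries, with 80.3% and 95.1% of their words shared. Levels of different members are therefore read here as levels of the counted reads.

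**Figure D1:**
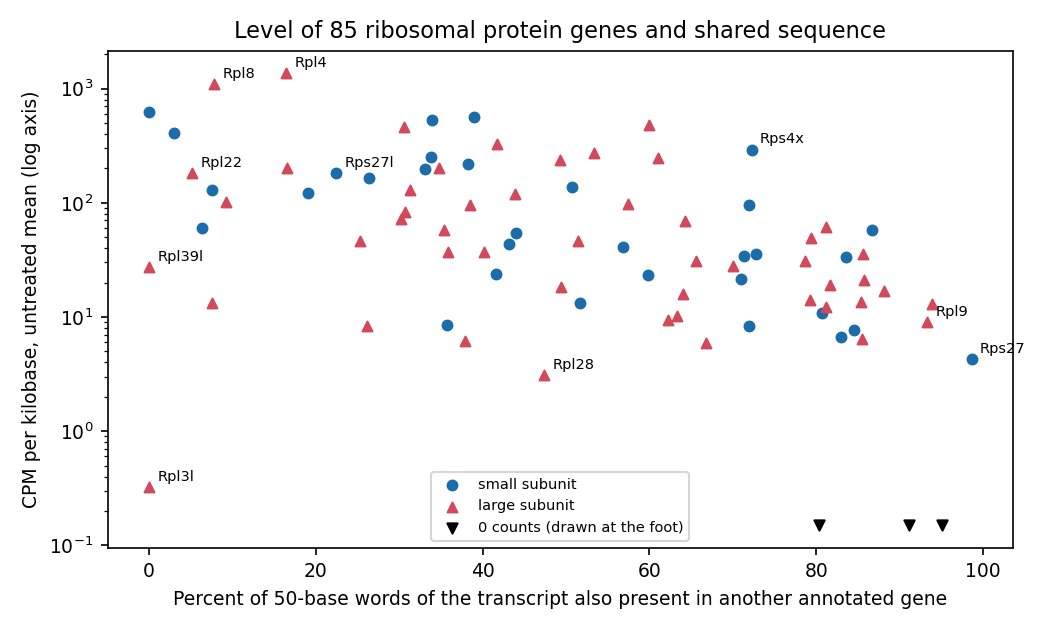
Level of each ribosomal protein gene in untreated cells (mean CPM per kilobase of exon over 3 clones, log axis) against the percent of its 50-base words found in another annotated gene. Levels are lower where more sequence is shared (Spearman rho −0.53, n = 85), and the genes with 0 counts are drawn as triangles at the foot.

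Among the 5 members with the highest level per kilobase in untreated cells were Rpl4, a protein that lines the exit tunnel of the large subunit, at 1359 ± 29 CPM per kilobase, Rpl8 at 1087 ± 194 and Rps15 at 568 ± 132 (SD, n = 3 clones). These 3 levels differed from each other by more than their spreads. The lowest of the 82 tested were Rpl3l, a paralog of Rpl3 known from heart and skeletal muscle, at 0.32 ± 0.20 CPM per kilobase, Rpl28 at 3.11 ± 0.91, Rps27 at 4.30 ± 0.22, Rpl29 at 5.92 ± 0.74 and Rpl34 at 6.15 ± 0.04. Rpl3l apart, none of these is a listed paralog of another member, though Rps27 itself has the paralog Rps27l. 

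Promoter windows of GRCm38.p6, from RefSeq, covered 250 bases before to 50 after the annotated start and matched 65 of the 85 members. A search on both strands found CCGGAAG, the core of sites of ETS factors, a family that ERK phosphorylates, in 26 of 65 members, or 40.0%. It occurred in 37.7% of the 69 mitochondrial ribosomal protein genes with a window and in 9.93% of all 27025 genes with one. Among the 14165 genes with a window and any counts in these libraries, whether tested or not, it occurred in 15.0%. The pyrimidine run CTCTTTC was in 27.7% of members, against 5.80% of mitochondrial ribosomal protein genes and 9.06% of the genes with any counts. The GC box GGGCGG was in 61.5% of members and 57.0% of the genes with any counts, and AAGATGG, of the YY1 type, in 15.4% and 7.54%. No match to one of these motifs overlapped a match to another in a member. Of members whose printed-size window (100 bases before to 20 after the start) held the ETS core, 19 were tested, with a median log2 change at 4 h of 0.20, against 0.12 for the 43 without it. At 2 h the medians were 0.24 with and 0.27 without. Windows of genes that recur in the results below are shown, with the ETS core in capitals where it occurs. They belong to Rps2 (chr17:24719963-24720082, plus strand), Rps21 (chr2:180257349-180257468, plus strand), Rpl41 (chr10:128549149-128549268, minus strand) and Rpsa (chr9:120127666-120127785, plus strand):
Rps2: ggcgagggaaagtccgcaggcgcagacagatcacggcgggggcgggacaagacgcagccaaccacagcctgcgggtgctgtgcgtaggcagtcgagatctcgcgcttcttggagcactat
Rps21: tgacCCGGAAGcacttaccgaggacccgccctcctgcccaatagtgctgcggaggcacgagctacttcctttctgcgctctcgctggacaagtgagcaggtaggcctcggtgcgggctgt
Rpl41: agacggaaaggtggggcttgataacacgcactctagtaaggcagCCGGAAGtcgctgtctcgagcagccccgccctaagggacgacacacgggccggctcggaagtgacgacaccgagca
Rpsa: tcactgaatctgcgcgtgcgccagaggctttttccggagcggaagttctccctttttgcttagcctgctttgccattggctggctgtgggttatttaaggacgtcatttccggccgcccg
A match is a description of the letters in these windows and shows no binding. Rps21 also has a window at chr2:180257279-180257398 on the plus strand, not shown, with 2 ETS cores against 1 in the window shown.

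Each library held 24213641 to 31435301 counts. Pluripotency markers, all 8 tested, summed to 3666 to 4086 CPM in untreated cells, and to 4270 to 4773, 4277 to 4973 and 3865 to 3974 CPM at 1, 2 and 4 h. Their sums at 1 and 2 h did not overlap those of untreated cells, at the times when most members had their highest mean. The endoderm, trophoblast and neural marker lists each stayed under 50 CPM. The fibroblast sum was 11.6 to 26.6 CPM at 4 h, against 3.39 to 4.26 CPM in untreated cells, with 2 of its 7 genes tested, and the neural sum was 10.2 to 18.8 CPM, against 7.56 to 9.47 CPM, with 2 of 3 tested. The trophoblast sum was 20.9 to 46.8 CPM at 4 h, against 13.7 to 27.0 CPM, and the endoderm sum 3.05 to 9.45 CPM, against 4.74 to 10.4 CPM. The part of these markers in the changes of the members was not tested.

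Ribosomal protein genes took 2.14 ± 0.08% of all counts in untreated cells, then 2.25 ± 0.03%, 2.38 ± 0.14% and 2.40 ± 0.06% after 1, 2 and 4 h (SD, n = 3 clones). The 3 libraries at 4 h held 2.33 to 2.44%, against 2.04 to 2.203% in untreated cells, and the groups did not overlap. Small subunit genes took 1.076 ± 0.038% at 4 h, against 0.955 ± 0.044% in untreated cells, and large subunit genes 1.32 ± 0.02%, against 1.18 ± 0.04%. The mitochondrial ribosomal protein genes took 0.404 ± 0.026% at 4 h, against 0.418 ± 0.004% in untreated cells. In bulk RNA, more cells with a given level and more RNA per cell cannot be told apart.

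**Figure D2:**
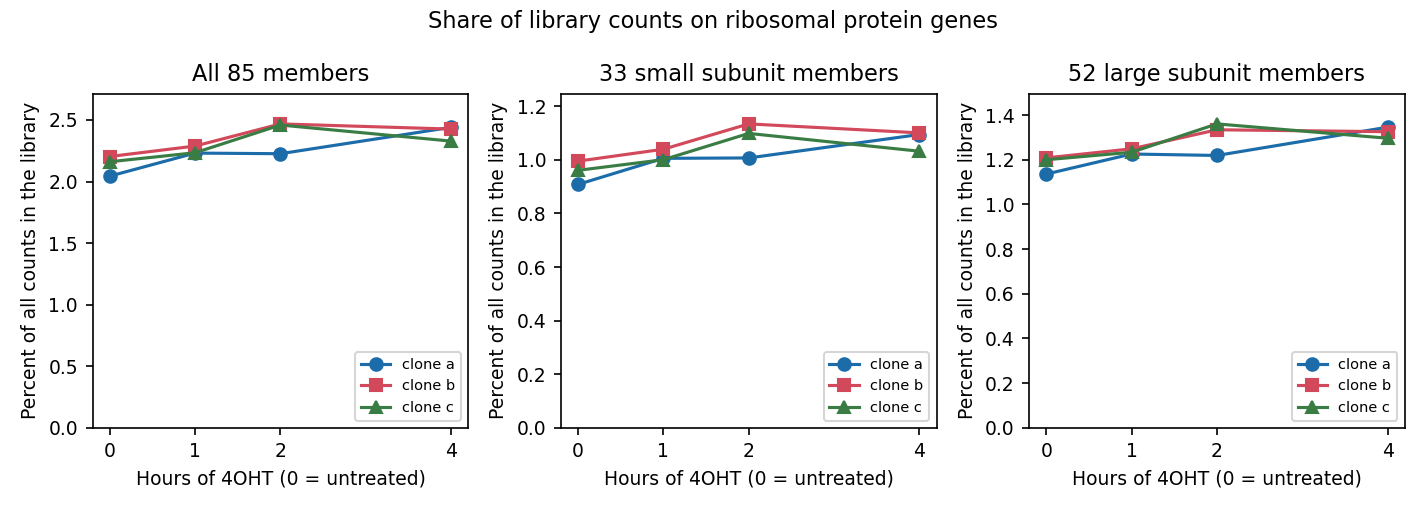
Percent of each library's counts on ribosomal protein genes (all members, small subunit and large subunit) against hours of 4OHT, with 1 line per clone and 0 h for untreated cells. All 3 clones lie higher at 4 h (2.33 to 2.44% for all members) than any untreated library (2.04 to 2.203%).

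The genes were compared between times with edgeR's quasi-likelihood test, p-values being adjusted by Benjamini-Hochberg over all 14185 genes in the fit and called at an adjusted p under 0.05. Of the 85 members 82 were tested; Rpl13, Rpl35 and Rps27rt, with 0 counts, were not. Clones were also entered as a block, since the same clone was followed over time. In an F test of the 3 treated times together, 31 of the 82 were called without the block, where 27.4% of all genes tested were called, and 62 with it, where 56.8% were.

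At 1 h none of the 82 was called without the block, beside 0.0775% of all genes called higher. At an unadjusted p under 0.05 there were 42, beside 11.5% of all genes, and DESeq2 called 8, beside 0.938%, and limma-voom 0. With clone as a block, 34 of the 82 rose and none fell, beside 5.41% of all genes higher and 1.58% lower. The median log2 change of the 82 was 0.24, against −0.02 for all genes, and 66 of the 82 were above 0. In 41 of the 82 all 3 clones lay above all 3 untreated libraries, which held for 10.9% of all genes tested, with 8.99% below.

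At 2 h 29 of the 82 rose and none fell without the block, beside 9.56% of all genes higher and 6.64% lower. With the block 55 rose and none fell, beside 20.6% higher and 20% lower. The rises took in 14 of the 32 small subunit genes tested and 15 of the 50 large subunit genes. The median log2 change was 0.30, against −0.02 for all genes, and 79 of the 82 were above 0. In 48 of the 82 the groups did not overlap, which held for 19.1% of all genes in that direction. The count of 29 rested on few libraries. Leaving out an untreated library gave 8 (clone a), 9 (clone b) or 17 (clone c). Beside these stood 7.3%, 4.32% and 8.92% of all genes in either direction. Leaving out a 2 h library gave 44 (clone a), 2 (clone b) or 2 (clone c), beside 21.8%, 2.63% and 2.35% of all genes. Leaving out clone c at 4 h gave 19, beside 11.3%.

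At 4 h 27 of the 82 rose and none fell without the block, beside 18% of all genes higher and 15.1% lower. They were 11 of 32 small and 16 of 50 large subunit genes. The count ranged from 21 to 29 when any 1 library was left out, beside 21.2% to 38.6% of all genes in either direction. It was 7 without all libraries of clone b and 6 without those of clone c, beside 13.5% and 6.43%. With the block 43 rose and 3 fell, beside 26.2% and 25.7% of all genes. The median log2 change was 0.17, against −0.02 for all genes, with 67 of the 82 above 0, and in 40 of the 82 the groups did not overlap, which held for 22.8% of all genes. Of the 74 mitochondrial ribosomal protein genes tested, 15 were higher and 3 lower at 4 h, with a median log2 change of 0.06, and the difference between both gene groups was not tested.

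**Figure D3:**
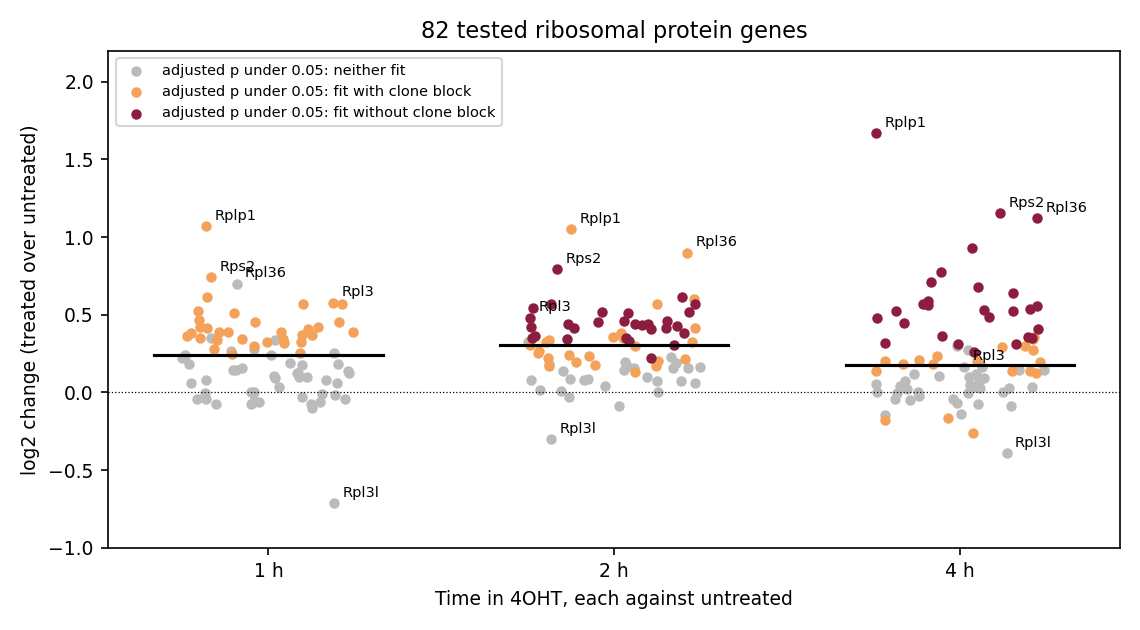
Log2 change of the 82 tested ribosomal protein genes at each time against untreated cells, with 1 point per gene and a bar at the median (0.24, 0.30 and 0.17 at 1, 2 and 4 h). Colour marks whether the gene was called by edgeR without the clone block, only with it, or by neither fit, and at 4 h Rplp1, Rps2 and Rpl36 lie above 1.

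The members did not all follow one course. The highest of the 4 group means fell in untreated cells for 3 of the 82, and at 1, 2 and 4 h for 18, 36 and 25. Over all genes tested those shares were 35.0%, 15.1%, 18.2% and 31.6%. Some genes went on climbing to 4 h, some were highest at 1 or 2 h and were lower again by 4 h, and some differed little over the whole course.

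The acidic stalk proteins Rplp1 and Rplp2, with their anchor Rplp0, form the arm of the large subunit that recruits elongation factors. Rplp1 (chr9:61913284-61914542, minus strand) had 682, 798 and 786 CPM at 4 h (clones a, b and c), against 108, 258 and 347 CPM in the untreated clones. The groups were far apart at 4 h, and the libraries at 4 h had an SD of 63.5 CPM, against 121 CPM in untreated cells. The log2 change at 4 h was 1.67 ± 0.35 (SE, edgeR adjusted p = 0.0047), the highest of all members. At 2 h Rplp1 had 329, 466 and 684 CPM, with a log2 change of 1.05 ± 0.35 and an adjusted p of 0.0579 without and 0.00802 with the block. Rplp0 had 729, 764 and 781 CPM at 4 h, against 468, 559 and 605 CPM in untreated cells, a log2 change of 0.48 ± 0.09 (edgeR adjusted p = 0.00314). Rplp2 had 222, 293 and 245 CPM at 4 h, against 150, 192 and 170 CPM in untreated cells, a log2 change of 0.57 ± 0.13 (edgeR adjusted p = 0.00822). All 3 stalk genes thus rose at 4 h, each without overlap between the groups, and their calls stood without each single library.

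Rps2, which sits at the mRNA entry of the small subunit, had 49.97, 71.2 and 67.8 CPM in the 3 untreated clones, then 107, 113 and 96.3 CPM at 1 h, 91.1, 122 and 114 CPM at 2 h, and 135, 156 and 129 CPM at 4 h. No treated library was as low as any untreated one. Its log2 change was 0.79 ± 0.14 at 2 h (edgeR adjusted p = 0.00917) and 1.16 ± 0.14 at 4 h (edgeR adjusted p = 0.000347), and its call at 4 h was kept in all 27 alternatives tried. The exons at chr17:24718116-24721929, plus strand, overlap the antisense gene Snhg9 and 1 small nucleolar RNA, and 71 pseudogenes share words with Rps2, so its counts are uncertain in source. Rps21, an RNA-binding protein of the small subunit, had 214, 253 and 214 CPM at 4 h, against 106, 154 and 138 CPM in untreated cells. The log2 change was 0.78 ± 0.16 (edgeR adjusted p = 0.00381).

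Rpl36 and Rpl41, small basic proteins of the large subunit, were the other genes among the 5 highest at 4 h. Rpl36 had 10.1, 11.1 and 9.2 CPM at 4 h, against 2.8, 5.8 and 5.5 CPM in untreated cells, a log2 change of 1.12 ± 0.29 (edgeR adjusted p = 0.0123). Rpl41 had 251, 276 and 266 CPM at 4 h, against 93.5, 142 and 180 CPM in untreated cells, a log2 change of 0.93 ± 0.22 (edgeR adjusted p = 0.00815). In both, as in Rplp1 and Rps2, the untreated library of clone a was the lowest of all 12. The calls of Rplp1, Rps2, Rpl36, Rpl41 and Rps21 at 4 h were each kept without any single library, including that one.

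Rpsa, the laminin receptor precursor that also serves as a small subunit protein, was higher at every treated time. It had 161, 180 and 177 CPM in untreated clones, 249.2, 274 and 247 CPM at 1 h, 221, 295 and 252 CPM at 2 h and 228, 302 and 237 CPM at 4 h. The log2 change was 0.57 ± 0.12 at each treated time, with an edgeR adjusted p of 0.195 at 1 h (0.00165 with the block), 0.0152 at 2 h and 0.00511 at 4 h. The call at 2 h was lost with clone a omitted among untreated cells, or clone b or c at 2 h. Rps19, the gene most often mutated in the human red cell disorder Diamond-Blackfan anaemia, had 310, 332 and 316 CPM at 4 h, against 152, 225 and 236 CPM in untreated cells. Its log2 change was 0.57 ± 0.14 at 2 h (edgeR adjusted p = 0.0241) and 0.64 ± 0.14 at 4 h (edgeR adjusted p = 0.00573), and the call at 2 h was lost with clone b or c omitted at 2 h. Rpl35a, also mutated in that disorder, had 164, 171 and 148 CPM at 4 h, against 172, 170 and 150 CPM in untreated cells, and was not called.

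Among the most abundant genes, Rpl8 had 1985, 2255 and 2158 CPM at 4 h, against 1173, 1630 and 1628 CPM in untreated cells. It rose at 4 h, with a log2 change of 0.53 ± 0.12 (edgeR adjusted p = 0.0068), and shared 7.86% of its words. Rpl4 had 2868, 3109 and 2908 CPM at 4 h, against 2741, 2778 and 2666 CPM in untreated cells, a log2 change of 0.12 ± 0.06 (edgeR adjusted p = 0.17). Rps3, a protein of the mRNA channel, had a log2 change of 0.22 ± 0.06 at 2 h (edgeR adjusted p = 0.0282), a call lost with any untreated library omitted, clone b or c at 2 h, or clone c at 4 h.

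A second group was highest at 1 or 2 h. Rpl3, which lies near the peptidyl transferase centre, had 114, 114 and 111 CPM in untreated clones, 142, 177 and 186 CPM at 1 h, 134, 175 and 164 CPM at 2 h and 114, 138 and 129 CPM at 4 h. The 3 libraries at 1 h and at 2 h lay above all untreated ones, while at 4 h clone a was at the untreated level. The log2 change was 0.58 ± 0.12 at 1 h (edgeR adjusted p = 0.192, or 0.00382 with the block), 0.48 ± 0.12 at 2 h (0.0237) and 0.17 ± 0.12 at 4 h (0.296). Its call at 2 h was lost with any untreated library omitted, or clone b or c at 2 h. Rps12 had 84, 124 and 102 CPM at 2 h, against 72, 66 and 63 CPM in untreated cells, a log2 change of 0.62 ± 0.16 (edgeR adjusted p = 0.0264). At 4 h it had 71, 95 and 83 CPM, which overlapped the untreated libraries, with a log2 change of 0.30 ± 0.16. That call too was lost with any untreated library omitted, or clone b or c at 2 h. Exons of Rps12 and Rpl3 overlap annotated small nucleolar RNAs, as those of 24 members do.

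The difference between 4 h and 1 h was tested directly. Rpl3 fell by 0.41 ± 0.12 on the log2 scale, Rps3a1 fell by 0.34 ± 0.10, Rpl24 fell by 0.33 ± 0.10 and Rpl5 fell by 0.24 ± 0.07 between those times (edgeR adjusted p = 0.0304, 0.0274, 0.0407 and 0.0394). These 4 of 82 lower and 0 higher stood beside 8.74% of all genes lower and 10.8% higher. The count was 0 to 6 when 1 library was left out, beside 10.6% to 26.4% of all genes in either direction. It was 0 with clone b or c omitted at 1 h, beside 12.5% and 12%. It was 1 with clone b or c omitted at 4 h (higher, not lower, for clone c), beside 11.2% and 10.6%. It was 2 with clone a omitted at 4 h or clone b omitted among untreated cells, beside 26.4% and 17.7%. With clone b or c omitted at 2 h it was 2 as well, beside 18.6% and 17.9%. With the block 9 were lower and 9 higher, beside 19.8% and 20% of all genes, and the higher ones included Rps2, Rps21, Rpl41 and Rps26. Between 2 h and 1 h none was called without the block, beside 0.0564% of all genes higher and 0.00705% lower. At an unadjusted p under 0.05 there were 7, beside 16.2% of all genes, and DESeq2 called 1, beside 4.05%. With the block 5 were higher and none lower, beside 7.13% and 5.46% of all genes. Between 4 h and 2 h none was called without the block, beside 3.27% of all genes higher and 1.41% lower. At an unadjusted p under 0.05 there were 11, beside 20.7%, and DESeq2 called 2, beside 9.83%. With the block 10 were lower at 4 h than at 2 h and 1 was higher, Rps2, beside 9.98% and 12% of all genes. Over the 82 genes, the log2 change from 1 h to 4 h had a Spearman rho of −0.41 with the percent of shared words, and the changes at 1, 2 and 4 h against untreated cells had 0.34, 0.22 and −0.01.

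**Figure D4:**
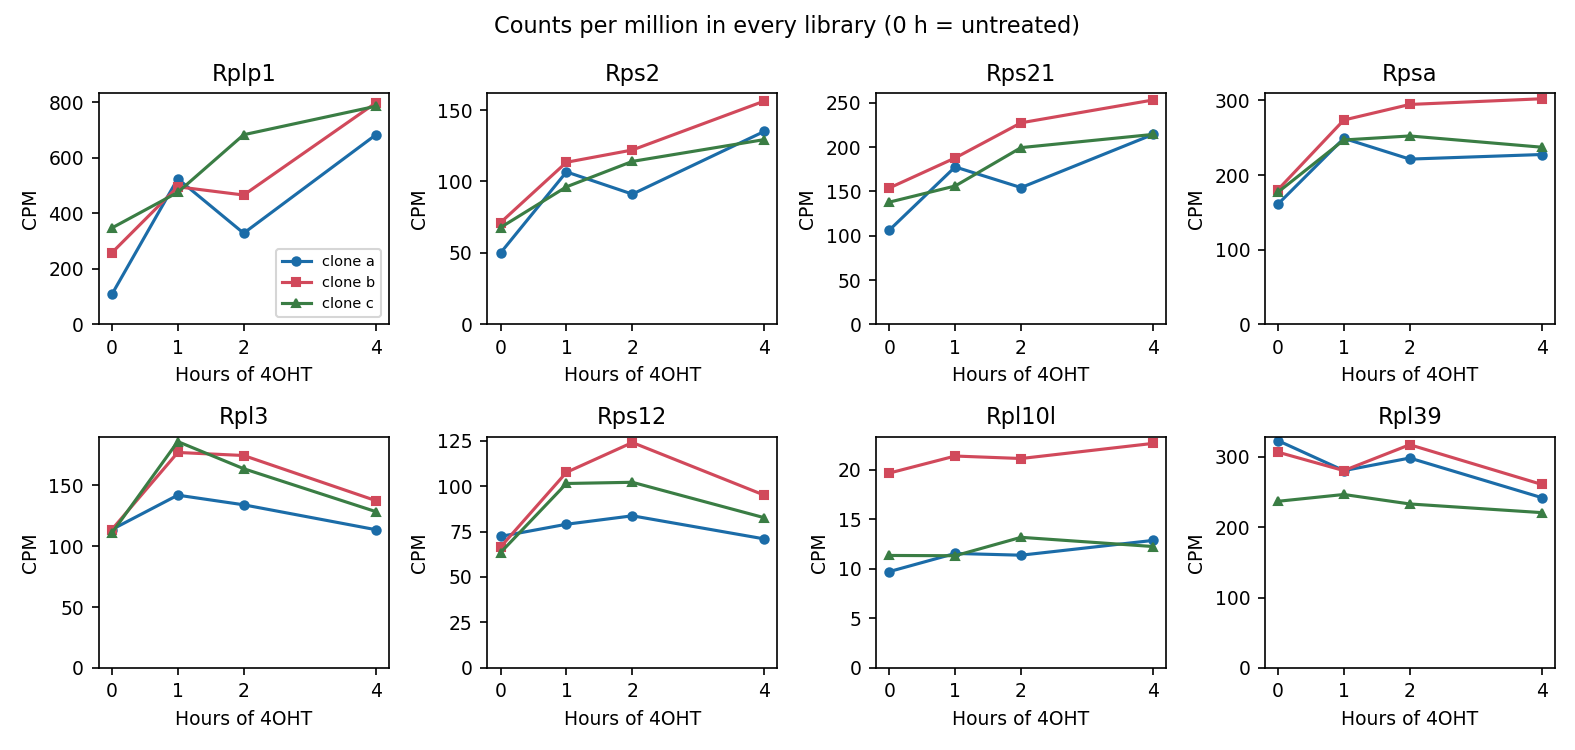
CPM of 8 ribosomal protein genes in every library against hours of 4OHT, with 1 line per clone and 0 h for untreated cells. Rplp1, Rps2 and Rps21 are highest at 4 h, Rpsa stays level after 1 h, Rpl3 and Rps12 are lower again at 4 h, Rpl10l is higher in clone b at every time, and Rpl39 is lowest in each clone at 4 h.

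Rpl5 and Rpl11 bind the smallest ribosomal RNA before joining the large subunit, and the free particle binds and inhibits Mdm2. Rpl11 had 30.3, 32.7 and 32.3 CPM at 2 h, against 24.8, 25.2 and 25.8 CPM in untreated cells, a log2 change of 0.33 ± 0.08 (edgeR adjusted p = 0.0257). It was lost with any untreated library omitted, or clone b or c at 2 h. Rpl5 had 53.7, 52.2 and 55.0 CPM at 2 h, against 53.8, 49.2 and 48.9 CPM in untreated cells, a log2 change of 0.08 ± 0.07 (edgeR adjusted p = 0.452). Rps6, whose protein the S6 kinases and the ERK-activated RSK kinases phosphorylate, had 15.4, 16.1 and 15.5 CPM at 4 h, against 13.1, 11.6 and 11.9 CPM in untreated cells. Its log2 change of 0.36 ± 0.13 had an edgeR adjusted p of 0.049, and the call was lost without any single library other than that of clone a at 2 h.

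Several genes with fixed roles were not called at any time without the block, though with it Rps27a was at 1 and 2 h (edgeR adjusted p = 0.0382 and 0.0189), Rpl38 at 2 and 4 h (0.0247 and 0.0371) and Rps25 at 4 h (0.0322). Rps27a, made as a fusion with ubiquitin, had 17.9, 18.6 and 17.98 CPM at 4 h, against 16.3, 16.6 and 16.2 CPM in untreated cells, and Rpl38, linked to translation of Hox mRNAs in mouse, had 23.5, 24.7 and 21.9 CPM, against 19.1, 21.7 and 20.03 CPM. Rps25, used by viral and cellular internal ribosome entry sites, had 115, 114 and 98.6 CPM at 4 h, against 100.1, 98.5 and 85.9 CPM. Rps23, at the decoding centre, had 16.7, 16.8 and 17.3 CPM, against 18.7, 16.8 and 15.1 CPM, and Rpl17, at the exit tunnel, 41.6, 43.4 and 42.6 CPM, against 46.3, 38.8 and 38.3 CPM. Rpl10a was called at 2 h with a log2 change of 0.44 ± 0.14 (edgeR adjusted p = 0.0493). It had 43.0, 62.7 and 59.6 CPM, against 37.3, 43.2 and 41.3 CPM, and the call was lost with any untreated or 1 h library omitted, clone b or c at 2 h, or clone c at 4 h.

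With the clone block 3 members were lower at 4 h than in untreated cells: Rpl39, a small protein of the exit tunnel, Rpl15 and Rps27l. Rpl39 had 242, 261 and 221 CPM at 4 h, against 323, 307 and 237 CPM in untreated cells. Each clone was lower at 4 h than untreated, while the groups overlapped. The log2 change was −0.26 ± 0.13, with an edgeR adjusted p of 0.156 without and 0.00642 with the block. Rpl15 (176, 127 and 167 CPM at 4 h, against 198, 158 and 176 CPM) and Rps27l (144, 130 and 125 CPM, against 166, 144 and 137 CPM) showed the same arrangement, with adjusted p of 0.0101 and 0.0184 with the block, and 0.389 and 0.128 without. With the GC correction described below as well as the block, Rpl39 kept its call (log2 change −0.19, edgeR adjusted p = 0.00865), while Rpl15 and Rps27l lost theirs (−0.11 and −0.09, edgeR adjusted p = 0.0933 and 0.0775).

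Paralogs were set beside the genes they derive from, as ratios of level per kilobase. Rpl22l1 to Rpl22 was 0.168 ± 0.002 at 4 h and 0.170 ± 0.019 in untreated cells, and neither gene was called at any time with or without the block (with the GC correction and the block both were at 2 h, edgeR adjusted p = 0.0268 and 0.0258). Rpl39l to Rpl39 was 0.205 ± 0.042 at 4 h and 0.137 ± 0.026 in untreated cells (SD, n = 3), with Rpl39l at 23.0, 37.4 and 26.0 CPM, against 20.3, 28.1 and 19.7 CPM. Its log2 change of 0.35 ± 0.22 had an edgeR adjusted p of 0.25 without and 0.013 with the block. Rps27l to Rps27 was 31.4 ± 2.6 at 4 h and 42.4 ± 3.0 in untreated cells. Rpl7l1 to Rpl7 was 0.373 ± 0.030 and 0.376 ± 0.024, and Rpl36al to Rpl36a 1.45 ± 0.23 and 1.58 ± 0.24. Rpl10l to Rpl10 was 1.09 ± 0.30 and 0.99 ± 0.40, and Rpl3l to Rpl3 was 0.00606 ± 0.00042 and 0.00912 ± 0.00558. These ratios carry the unequal sharing of words given above and so are compared only across samples.

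Clones differed in a few members at every time. Rpl10l, an autosomal retrogene of the X-linked Rpl10 known from testis, had 19.7 to 22.7 CPM in the 4 libraries of clone b, against 9.7 to 13.2 CPM in the 8 others, a ratio of means of 1.81. Rpl39l, a retrogene of Rpl39 also known from testis, was above all others in clone b with a ratio of 1.38, and Rpl26 with 1.19. Rpl15 was below all others in clone b with a ratio of 0.783, and Rpl36al and Rps15a were below in clone c with 0.785 and 0.873. Of all genes tested, 2.37% lay above and 2.23% below in clone b, 0.938% above and 1.1% below in clone c, and 1.12% above and 0.895% below in clone a. The members' counts were 4 above and 1 below in clone b, 0 above and 2 below in clone c, and 0 in clone a, of the same order as that background.

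The change of a member went with its GC content. Over the 82 members the log2 change had a Spearman rho with GC of 0.57, 0.64 and 0.61 at 1, 2 and 4 h, against 0.33, 0.13 and 0.16 over 14038 genes with a value. Of the 41 members above the median GC of 50.8%, 21 were called at 2 h and 21 at 4 h, against 8 and 6 of the 41 below it. The relation differed by clone: over all genes at 1 h, rho was 0.57 in clone a, 0.17 in clone b and 0.02 in clone c, while over the members it was 0.66, 0.46 and 0.26. With each library's trend over GC removed, 0, 38 and 31 members were higher at 1, 2 and 4 h, beside 0.0846%, 12.8% and 20.1% of all genes, and rho over the members was 0.35, 0.49 and 0.49 at 1, 2 and 4 h. With clone a omitted among untreated cells, rho over the members was 0.41, 0.50 and 0.56. The part of GC content in the difference among members was not tested further.

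**Figure D5:**
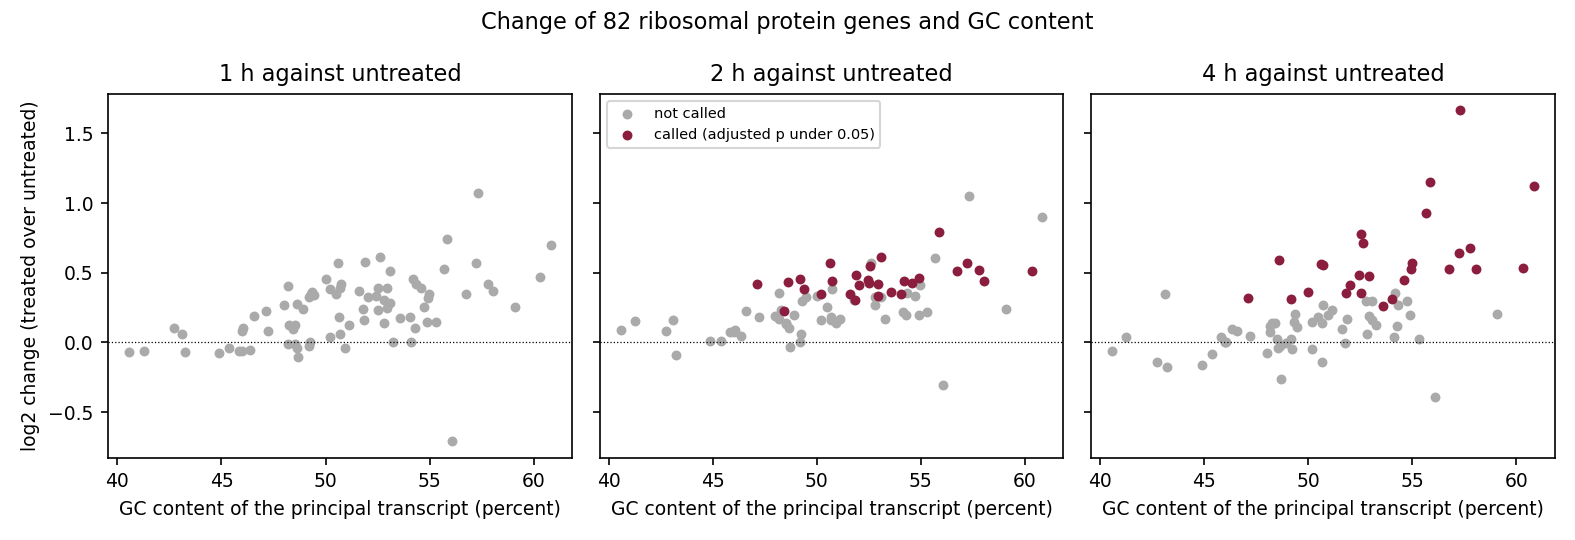
Log2 change of the 82 tested ribosomal protein genes at 1, 2 and 4 h against untreated cells, plotted against the GC content of the principal transcript, with members called by edgeR in dark red. Larger changes lie at higher GC content at each time (Spearman rho 0.57, 0.64 and 0.61).

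Other genes of protein synthesis were read from fixed lists. Fau and Rack1, ribosomal proteins whose symbols fall outside the rule, both rose at 2 and 4 h, by 0.54 and 0.31 on the log2 scale at 4 h (edgeR adjusted p = 0.038 and 0.026). Of 18 translation factors and other genes with TOP mRNAs, 1, 7 and 6 rose at 1, 2 and 4 h, and none fell. Tpt1 rose at all 3 times, by 1.00, 0.75 and 0.52, and Eef2, the translocation factor, rose by 0.49 at 2 h and 0.64 at 4 h. Of 11 chaperones and assembly factors of ribosomal proteins, 5 rose at 2 h and 5 at 4 h, among them Rrs1, which loads the Rpl5 and Rpl11 particle, with a log2 change of 0.78 at 4 h (edgeR adjusted p = 0.002), and Grwd1, a chaperone of Rpl3, with 0.62 (0.002). Of 20 regulators of ribosomal protein synthesis and translation, 6 rose and 1 fell at 4 h, and the rest were not called. Myc, a transcription factor that drives ribosome production, had 92.7, 176 and 152 CPM at 4 h, against 21.5, 26.7 and 31.1 CPM in untreated cells, a log2 change of 2.41. Eif4ebp1, a translation repressor under mTOR control, rose by 0.78, Larp1 by 0.27 and the ETS factor Gabpa by 0.26, and Tsc1, an inhibitor of mTOR signalling, fell by 0.35. Mdm2 rose at 2 h by 0.47 (edgeR adjusted p = 0.036), and at 4 h its log2 change was 0.04. These counts stand beside the shares of all genes higher given for each time, 0.0775%, 9.56% and 18%. The shares lower were 0%, 6.64% and 15.1%.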

How the data were processed

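Raw counts of reads by gene symbol came in 1 table deposited by the authors, with a column for each library. Per the submitters' processing notes STAR, featureCounts and DESeq and the mm10 build were used; tool versions, annotation, strandedness and the handling of reads matching several places were not stated there. Titles and design give 1, 2 and 4 h of 4OHT, while the treatment protocol names only 2 h. Time and clone letter in each column name gave its sample. Nothing in the labels says how the clones were derived. Without the block, p-values measure the spread among these 3 clones within the groups. With the block, they measure the spread left once each clone's own level is taken out.

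Genes kept by filterByExpr (minimum count 10, minimum total 15; 14185 kept, 11712 not) were scaled by TMM and fitted with 1 term per group over 12 libraries (edgeR 4.0.16, limma 3.58.1, DESeq2 1.42.0, R 4.3.3; 8 residual degrees of freedom). Tests were 2-sided at an adjusted p of 0.05. CPM uses TMM-scaled library sizes; per-kilobase levels use merged GENCODE M21 exons. SE is the log2 change over the root of F. The steps were tested on simulated data.

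The clone letter marks the same clone at each time and so pairs the libraries: libraries of 1 clone deviated together from their group means in all 18 pairs (r 0.184 to 0.684), against −0.568 to −0.024 between clones. The fit with the block had 6 residual degrees of freedom. Differences among the libraries of a group exceeded sampling noise (chi-square over its degrees of freedom 19.1 to 107). Intervals and limits of 3 counts cover counting error only.

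Alternatives were other scalings (RLE, upper quartile, library totals, TMM without these genes), no filter, DESeq2, limma-voom, the block, 2 groups alone, a test against a 1.2-fold change and leaving out libraries or clones. The GC correction (loess-type trend, span 0.3) was added after seeing the data. Members and lists were chosen with earlier results of these data known. Named were the 5 highest and 5 lowest called members per time, the 5 highest and lowest levels, members without counts, paralog pairs and fixed role examples; Rpl26, Rps15a, Rpl15, Rps26, Rpl24 and Rps3a1 were named after their values were seen, as were the examples from the lists and the motifs searched. Some members that these rules name are not reported here. No listed host gene of small nucleolar RNAs was tested.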

Additional observations from a re-analysis of the deposited data

Results flagged for a closer look

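The change relative to untreated cells differed between 4 h and 1 h for 4 ribosomal protein genes, by edgeR's test of the difference with adjustment over all genes. These 4 of 82, all lower at 4 h, stood beside 8.74% of all genes lower and 10.8% higher. Members were thus called at a smaller share than all genes, a difference that was not tested. Of 27 alternatives 8 ended the call of Rpl3 and of Rps3a1 and 13 that of Rpl24 and of Rpl5. Rpl3 fell by 0.41 on the log2 scale at 4 h relative to 1 h. Rps3a1 fell by 0.34, with 20.2, 19.4 and 20.3 CPM at 4 h, against 21.96, 25.6 and 28.4 CPM at 1 h. Rpl24 fell by 0.33, with 16.2, 18.5 and 18.3 CPM, against 20.002, 23.4 and 23.0 CPM. Rpl5 fell by 0.24, with 47.6, 44.5 and 45.8 CPM, against 51.0, 53.6 and 58.3 CPM. For each gene the 3 libraries at 4 h lay below all 3 at 1 h. These genes shared 85.6%, 71.0%, 81.7% and 93.8% of their 50-base words with other annotated genes (Rpl3, Rps3a1, Rpl24 and Rpl5 in that order).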

How the results depend on the processing

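No call of a named gene changed sign, while without clone c at 4 h the 4 lower calls between 4 h and 1 h gave way to 1 higher. Counts of called members are given as 1 h, 2 h and 4 h against untreated cells, then 2 h against 1 h, 4 h against 2 h and 4 h against 1 h; without the block they were 0, 29, 27, 0, 0 and 4. With clone as a replicate block they were 34, 55, 46, 5, 11 and 18, and with a GC correction as well 39, 64, 52, 9, 13 and 24, beside 7.59%, 45%, 55.4%, 17.6%, 25.4% and 44.7% of all genes in either direction. DESeq2 gave 8, 45, 30, 1, 2 and 7, beside 0.938%, 22.6%, 36%, 4.05%, 9.83% and 24.1%. With 2 groups alone the first 2 were 1 and 10, beside 0.181% and 10.8%. Library totals gave 12 at 2 h and upper quartile scaling 14, near the 15.5% and 15.3% of all genes called. These scalings shifted the median of all genes by −0.14 and −0.11 at 2 h, and the members' median relative to it was 0.33 in both. No filter gave 2 in the last comparison, beside 13.3% of all genes. The test against a 1.2-fold change gave 1 at 2 h, 14 at 4 h and 0 in the last, beside 3.01%, 17.3% and 9.52%. Leaving out 1 library gave 2 to 44 at 2 h, 21 to 29 at 4 h, 0 to 6 in the last and 0 elsewhere. The shares of all genes were 2.35% to 21.8%, 21.2% to 38.6% and 10.6% to 26.4%, and elsewhere up to 10.2%. Without clone a the counts were 1 at 1 h, 2 for 4 h against 2 h and 12 for 4 h against 1 h. Beside them stood 0.182%, 8.42% and 24.9% of all genes. Without clone b they were 0 at 2 h, 7 at 4 h and 0 in the last, beside 0.683%, 13.5% and 5.6%. Without clone c they were 0, 6 and 0, beside 0.007%, 6.43% and 0.35%. The F test called 31, and 62 with the block, beside 27.4% and 56.8% of all genes. It called 64 with GC correction and block and 15 with library totals, whose shares over all genes are not reported here. The share of counts was higher by 0.115 percentage points at 1 h, and by 0.205 without the 20 most abundant genes in the denominator. At 2 h it was higher by 0.248, by 0.188 from members sharing under 50% of words alone, and by 0.202 to 0.328 with 1 library left out. The members' median minus that of all genes at 1 h was 0.26, and 0.18 for members at or above the median count. Of the 10 highest levels per kilobase, 5 stayed among the 10 highest without length scaling. Where no construction shows it, the cause was not tested. For Rpl13, Rpl35 and Rps27rt, with 0 counts, no change could be measured.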
